A study of Mus musculus with 96 samples.

Results

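A set of 7 genes whose products carry the output of the circadian clock were followed across the series, namely Dbp, Tef, Hlf, Nfil3, Bhlhe40, Bhlhe41 and Ciart. They were chosen by name, and all 7 were found among the 25095 gene symbols of each of the 4 deposited tables. Where a symbol had several transcripts, the one with the highest mean in a table stood for the gene. All 7 also passed the filter on low values in every table (at least 3 libraries above 5 RPKTM, that is, reads per kilobase of transcript per 10000000 reads). Because RPKTM is a level per length, levels of different genes were compared on that scale.

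RNA had been sequenced from 48 hepatocyte and 48 liver macrophage (LM) samples, 96 libraries in all. The mice were C57BL/6J males fed for 4 weeks with an obesogenic diet rich in fat and sucrose. The labels give 4 genotypes, Control, RevDKO, RevScapTKO and ScapKO, and 4 zeitgeber times, ZT4 and ZT10 in the light phase and ZT16 and ZT22 in the dark phase, each group holding 3 libraries. According to the study's methods, mice with floxed alleles received, as adults, a virus that expresses Cre recombinase from the hepatocyte promoter TBG, and Control mice received the same kind of virus encoding GFP. In RevDKO the floxed genes are Nr1d1 and Nr1d2, which encode the repressors REV-ERBα and REV-ERBβ. RevScapTKO adds Scap, whose product escorts the SREBP transcription factors of lipid synthesis to their activation. ScapKO has Scap as its only floxed gene. The deletions were thus directed to hepatocytes, and LMs were isolated from the same kinds of livers without being targeted themselves. The ScapKO libraries have tables of their own with no Control, so they were described only within those tables.

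In the clock of mammals, CLOCK and BMAL1 activate genes through E-box sequences, and their own repressors close the loop. DBP, TEF and HLF are the PAR bZIP activators, which bind D-box sequences and drive detoxification and metabolism genes of the liver, while NFIL3 represses through the same D-boxes. BHLHE40 (DEC1) and BHLHE41 (DEC2) repress at E-boxes, and CIART (CHRONO) binds and represses the CLOCK and BMAL1 pair. Nfil3 is known as a gene that REV-ERBs repress and ROR receptors activate through a shared response element.

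The sequences upstream of 3 of the members with a motif of one of these factors are shown. Those of Tef, which also had a motif, are described below without their letters. The sequences shown are RefSeq sequences of build GRCm38.p6, each the 250 bases that precede the annotated start, written 5′ to 3′ on the gene's own strand. The search covered both strands of the window from 250 bases before to 50 bases after the start for the E-box CACGTG, the D-boxes TTATGTAA and TTACGTAA, and the core of the REV-ERB and ROR response element, TAGGTCA. These motifs do not overlap each other in the members. Capitals mark the REV-ERB and ROR element of Nfil3, read here on the opposite strand (chr13:52981040-52981289, minus strand), and the E-boxes of Ciart (chr3:95882229-95882478, minus strand) and Bhlhe41 (chr6:145865421-145865670, minus strand).
Nfil3: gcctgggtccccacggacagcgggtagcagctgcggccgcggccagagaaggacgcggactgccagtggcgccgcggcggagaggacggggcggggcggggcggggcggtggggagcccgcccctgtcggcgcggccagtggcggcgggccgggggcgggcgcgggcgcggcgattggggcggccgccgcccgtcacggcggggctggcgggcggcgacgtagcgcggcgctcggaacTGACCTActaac
Ciart: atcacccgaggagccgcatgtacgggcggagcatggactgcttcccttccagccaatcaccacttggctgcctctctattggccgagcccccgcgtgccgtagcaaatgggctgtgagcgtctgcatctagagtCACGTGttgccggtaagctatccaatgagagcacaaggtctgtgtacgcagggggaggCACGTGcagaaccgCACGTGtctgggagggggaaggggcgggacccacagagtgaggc
Bhlhe41: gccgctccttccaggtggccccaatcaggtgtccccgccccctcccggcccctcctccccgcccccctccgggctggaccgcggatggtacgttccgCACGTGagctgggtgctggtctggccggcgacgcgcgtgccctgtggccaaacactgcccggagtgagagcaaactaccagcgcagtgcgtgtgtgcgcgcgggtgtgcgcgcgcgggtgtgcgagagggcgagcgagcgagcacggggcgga

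The Nfil3 element begins 12 bases before the start. It was the only one among the 7 windows of these genes, and 2.61% of all 32851 windows held one. Ciart had 3 E-boxes, beginning 116, 58 and 44 bases before the start, and Bhlhe41 had 1, at 153 bases. Each of the 2 annotated starts of Tef also had 1 E-box, at 127 and 138 bases before the start, and 7.15% of all windows held an E-box. Neither D-box was found in a window of these genes (1.06% of all windows). No window of Bhlhe40 was in the table used. A match describes letters in these windows and no more.

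The cell type of the libraries was checked with 10 markers each of hepatocytes and LMs, and 5 each of stellate and endothelial cells. In the hepatocyte table of 3 genotypes the summed hepatocyte markers ranged from 455617 to 1342510 RPKTM, and the summed LM markers had a median of 841 in Control, 1044 in RevDKO and 2816 in RevScapTKO. Of the RevScapTKO hepatocyte libraries, 2 of 3 at ZT16 and 3 of 3 at ZT22 exceeded 3 times the table's median of LM markers. Summed markers of stellate cells (median 781, 1087 and 2459 RPKTM) and endothelial cells (876, 1045 and 1635) also stood highest in RevScapTKO. In the LM table hepatocyte markers were abundant throughout, with sums from 36824 to 2407970 RPKTM against 3025 to 37315 for LM markers. Another 3 LM libraries (Control ZT16 replicate 1, Control ZT22 replicate 1 and RevScapTKO ZT22 replicate 3) exceeded 3 times the median of hepatocyte markers. LM markers were more than 3 times below their median in Control ZT22 replicate 3, RevDKO ZT16 replicate 3 and RevDKO ZT22 replicate 2. The titles of 12 ScapKO libraries say hepatocytes where their cell type field says liver macrophages. The titles were followed, and Alb measured from 196187 to 908028 RPKTM in these 12 libraries. As a check of the labels, Nr1d1 stood at 90.7 ± 119 RPKTM in Control hepatocytes, at 138 ± 108 in RevDKO, and at 140 ± 62.9 in RevScapTKO (mean ± SD over 12 libraries). Nr1d2 measured 228 ± 141, 312 ± 116 and 353 ± 62.5. Neither was lower under its label, and by limma Nr1d1 was higher over the day than in Control, by 1.55 log2 units in RevDKO (adjusted p 8.87e-05) and 1.79 in RevScapTKO (adjusted p 2.13e-06). The study itself reports much lower expression of both genes in hepatocytes, from its relative mRNA measurements. Since the levels used here do not show the deletion, RevDKO and RevScapTKO mean here the libraries labelled so, and directions carry that limit. Scap was lower in RevScapTKO hepatocytes, at 209 ± 63.5 RPKTM against 495 ± 73.1 in Control. In ScapKO hepatocytes, whose table has no Control, Scap stood at 382 ± 202 RPKTM, from 205 to 1006.

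In Control hepatocytes the members spanned a wide range of levels. Bhlhe40 (mean 483 RPKTM) and Tef (481) were highest, followed by Hlf (142), Nfil3 (84.8), Dbp (83.1), Ciart (23.0) and Bhlhe41 (10.02). Neighbours in this order were not all apart, with Bhlhe40 above Tef in 7 of 12 libraries and Nfil3 above Dbp in 7 of 12, while Tef lay above Hlf in 12 of 12. The day had a clear shape for most of them. Differences and waves were fitted with limma on log2(RPKTM + 1), a scale that understates changes of low genes such as Bhlhe41 and Ciart, and a call means an adjusted p under 0.05 over all genes tested. By the F test of a 24 h wave, 6 of 7 members passed in Control (8.29% of all genes passed), the exception being Hlf (adjusted p 0.214). Bhlhe40 passed at an adjusted p of 0.0285, which rose to as much as 0.108 and was lost when any of 5 libraries was left out. The fitted waves of Dbp, Tef, Hlf, Bhlhe40, Bhlhe41 and Ciart peaked between ZT8.1 and ZT11.6, and that of Nfil3 peaked at ZT20.5. At ZT22, near that peak, the means of Dbp (8.74 RPKTM), Tef (242) and Hlf (114) were the lowest of their 4 times, while at ZT16 those of Tef (479) and Hlf (145) were above their ZT4 means (441 and 142).

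**Figure D1:**
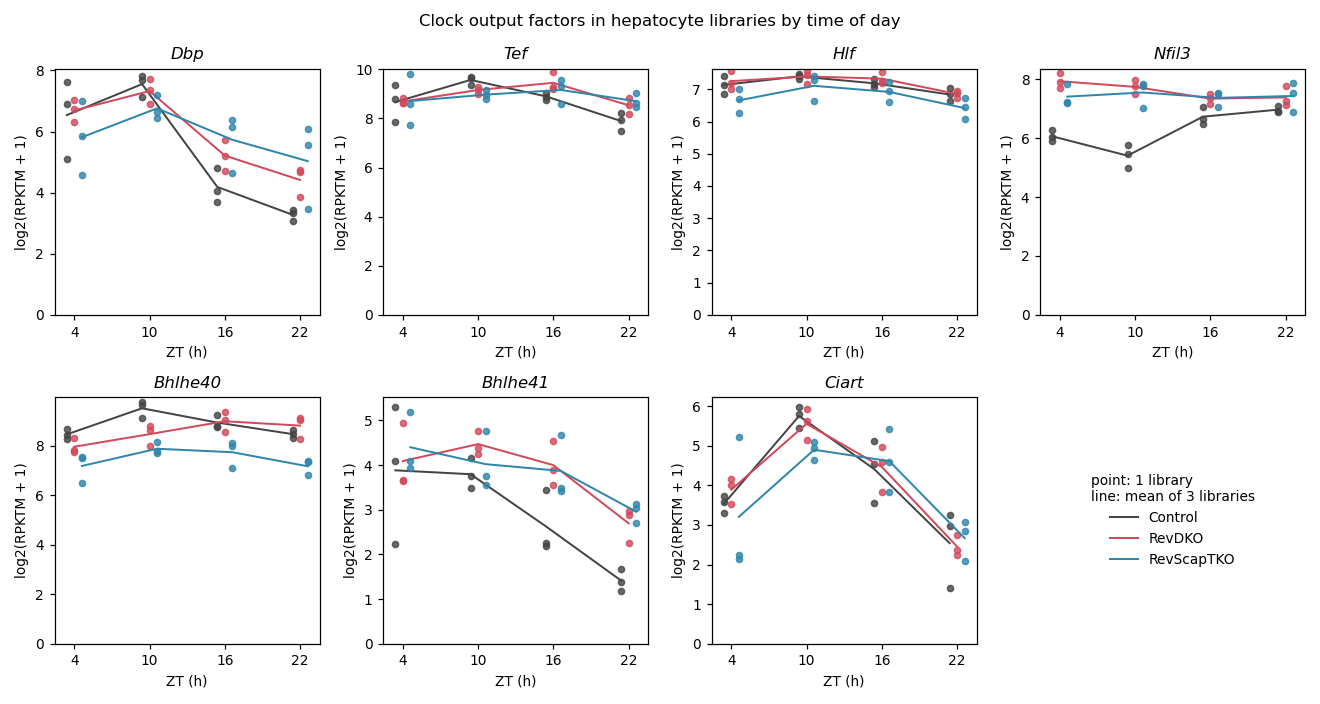
Level of each of the 7 genes in hepatocyte libraries, as log2(RPKTM + 1), against zeitgeber time in hours. Points are single libraries and lines join the means of 3 libraries for Control, RevDKO and RevScapTKO. The Nfil3 points of RevDKO, from 138 to 293 RPKTM, all lie above those of Control, and the Bhlhe40 points of RevScapTKO, from 89.8 to 279, all lie below those of Control.

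Nfil3 (NM_017373, mm9 chromosome 13, 53062578 to 53076408, minus strand), the D-box repressor of the group, showed the largest rise in the libraries labelled RevDKO. In Control hepatocytes it measured 63.9, 76.4 and 58.1 RPKTM at ZT4, 53.8, 30.6 and 42.8 at ZT10, 87.8, 131 and 100 at ZT16, and 118, 136 and 119 at ZT22. In RevDKO it measured 207, 293 and 236 at ZT4, 248, 180 and 215 at ZT10, 143, 179 and 163 at ZT16, and 138, 152 and 217 at ZT22. In RevScapTKO it measured 225, 149 and 143 at ZT4, 228, 130 and 217 at ZT10, 184, 132 and 182 at ZT16, and 185, 117 and 232 at ZT22. The lowest of the 12 RevDKO libraries lay above the highest of the 12 Control libraries, which was true of 21 of 13326 genes tested (0.158%). RevScapTKO lay above Control at ZT4 and ZT10 (2.9% of all genes). The gap between the groups was wide in the light phase and narrow in the dark phase, when Control was near its own peak.

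Averaged over the day, Nfil3 was 1.309 log2 units higher in RevDKO than in Control (SE 0.13, 95% CI 1.05 to 1.57, limma adjusted p 1.19e-08). It was 1.15 higher in RevScapTKO than in Control (SE 0.13, adjusted p 2.59e-08), and RevScapTKO differed from RevDKO by -0.16 (95% CI -0.42 to 0.10, adjusted p 0.366). By time point, the difference between RevDKO and Control was 1.9 at ZT4 (adjusted p 3.89e-05, 0.413% of genes passed as higher) and 2.33 at ZT10 (adjusted p 3.14e-07, 0.69%). At ZT16 and ZT22 it was 0.61 (adjusted p 0.711) and 0.42 (adjusted p 0.739), which did not pass. In RevScapTKO against Control, ZT4 and ZT10 passed as well, at 1.35 (adjusted p 0.000625, 9.27% higher) and 2.14 (adjusted p 4.89e-07, 2.03% higher).

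The daily wave of Nfil3 was therefore tested as such. Its peak-to-trough difference was 1.70 log2 units in Control, 0.69 in RevDKO and 0.12 in RevScapTKO, and its fitted peak stood at ZT20.5 in Control. The wave within RevDKO did not pass (limma F test, adjusted p 0.193), nor did that within RevScapTKO (adjusted p 0.942), so no peak time is read from them. The wave differed between RevDKO and Control (limma F test, adjusted p 0.00325, 0.203% of all genes) and between RevScapTKO and Control (adjusted p 0.0410, 0.188% of all genes). No other member passed either test, and between RevScapTKO and RevDKO none of the 7 passed, nor did any of the 13326 genes (0%, limma F test, 1 member at an unadjusted p under 0.05). With a pseudocount of 10 the RevScapTKO wave no longer passed (adjusted p 0.0664), nor with only these 2 genotypes in the fit (adjusted p 0.196), nor when any of 13 single libraries was left out, with adjusted p from 0.0517 to 0.173.

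**Figure D2:**
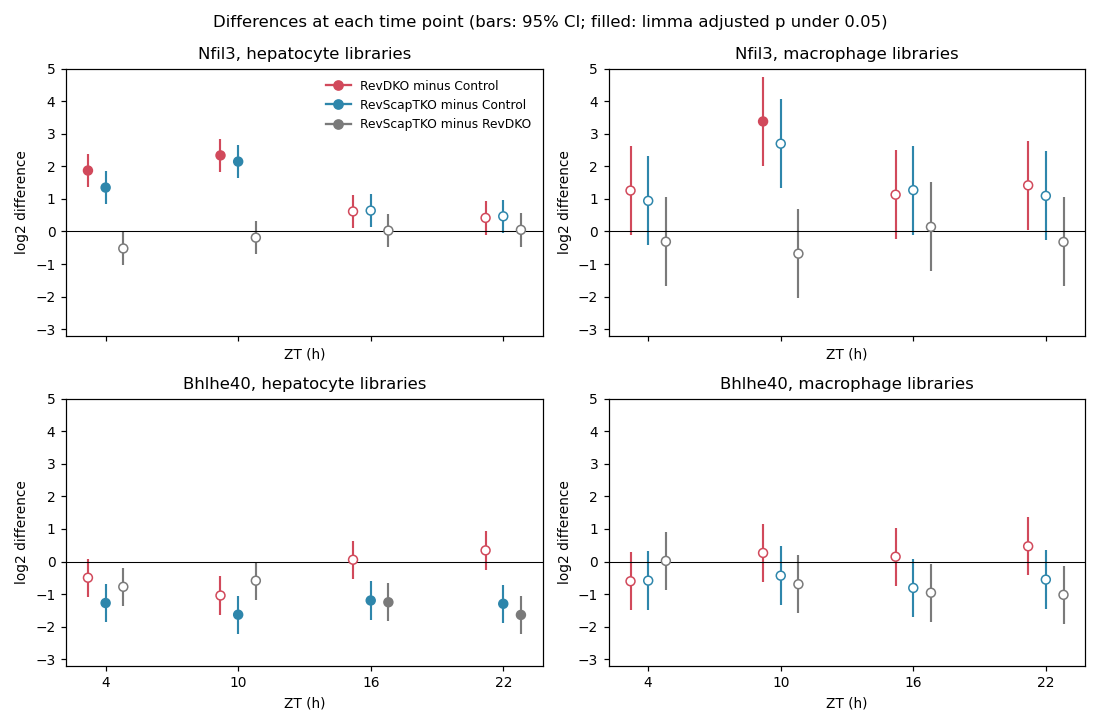
Differences on the log2 scale at each zeitgeber time for Nfil3 and Bhlhe40, in hepatocyte libraries at left and macrophage libraries at right. Bars are 95% confidence intervals and filled points passed the limma test. Nfil3 in hepatocytes stands 1.9 and 2.33 above Control at ZT4 and ZT10 of RevDKO, while Bhlhe40 stands below Control at all 4 times of RevScapTKO.

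The PAR bZIP activators changed less in level. Dbp (NM_016974, chromosome 7, 52960617 to 52965573, plus strand) had the largest fitted wave of the group in Control and RevDKO, while in RevScapTKO that of Ciart was larger. In Control it measured 33.7, 117 and 194 RPKTM at ZT4, 225, 207 and 140 at ZT10, 26.7, 11.99 and 15.8 at ZT16, and 7.39, 9.81 and 9.01 at ZT22. In RevDKO it measured 129, 78.2 and 105 at ZT4, 212, 117 and 162 at ZT10, 25.4, 51.6 and 35.7 at ZT16, and 25.5, 24.5 and 13.4 at ZT22. The groups overlapped at the peak, and at ZT22 the 3 RevDKO libraries lay above the 3 Control libraries (8.08% of all genes). In RevScapTKO it measured 23.0, 127 and 56.9 at ZT4, 146, 98.5 and 86.0 at ZT10, 70.4, 24.2 and 82.1 at ZT16, and 10.1, 66.1 and 46.0 at ZT22. The fitted peak-to-trough difference of Dbp was 4.88 log2 units in Control, 3.26 in RevDKO and 1.73 in RevScapTKO. The difference in wave did not pass between RevDKO and Control (limma adjusted p 0.9999, unadjusted 0.151) or between RevScapTKO and Control (adjusted p 0.229, unadjusted 0.000892), although it did when Control ZT4 replicate 1 (adjusted p 0.0335) or RevScapTKO ZT22 replicate 1 (adjusted p 0.0301) was left out. Within a genotype, the wave of Dbp passed in Control (adjusted p 8.04e-06) and RevDKO (adjusted p 0.00471) and not in RevScapTKO (adjusted p 0.189). Over all members the within-genotype count was 2 of 7 in RevDKO (Dbp, Ciart; 4.08% of all genes) and 1 of 7 in RevScapTKO (Ciart; 0.683%). Its mean level differed from Control by 0.52 in RevDKO (95% CI -0.06 to 1.106) and by 0.45 in RevScapTKO (95% CI -0.14 to 1.03), neither past the threshold. The 3′ part of Dbp overlaps Sphk2, on the opposite strand, by 741 bases, and whether counting used the strand is not given in the sources used here. Sphk2 stood at 179 ± 67.3 RPKTM in Control, at 176 ± 53.0 in RevDKO, and at 140 ± 33.5 in RevScapTKO (mean ± SD over 12 libraries).

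Tef (NM_153484, chromosome 15, 81633103 to 81657293, plus strand) was not shown to change in mean level, with a difference of 0.20 log2 units between RevDKO and Control (95% CI -0.15 to 0.55) and 0.13 between RevScapTKO and Control (95% CI -0.22 to 0.48). Its highest time point mean was 762 ± 89.1 RPKTM at ZT10 in Control, 718 ± 212 at ZT16 in RevDKO and 592 ± 185 at ZT16 in RevScapTKO (SD, n = 3 each). Control libraries measured 816, 811 and 659 at ZT10, all above the RevDKO values of 577, 516 and 626 (9.09% of all genes). At ZT16 the order was the other way, with 473, 528 and 435 in Control and 579, 962 and 613 in RevDKO (6.88% of all genes). Neither time point passed the test (unadjusted p 0.241 and 0.117 by limma), and the fitted wave of 1.69 log2 units in Control and 0.99 in RevDKO was not shown to differ (adjusted p 0.9999, unadjusted 0.0663). In RevScapTKO the wave was 0.52.

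Hlf (NM_172563, chromosome 11, 90197849 to 90252231, minus strand) had the smallest fitted wave of the 7 in Control and RevDKO (0.57 and 0.55 log2 units), while in RevScapTKO, at 0.74, it exceeded those of Nfil3 and Tef. In Control it ranged from 99.5 to 176 RPKTM with a median of 141, in RevDKO from 105 to 189 with a median of 146, and in RevScapTKO from 66.2 to 169 with a median of 104. It was lower in RevScapTKO, with a difference of -0.43 log2 units from RevDKO (SE 0.11, limma adjusted p 0.00381) and of -0.37 from Control (SE 0.11, adjusted p 0.00944), and RevDKO differed from Control by 0.07 (95% CI -0.15 to 0.29). The 3 groups overlapped. With the LM marker sum as a covariate the Hlf differences were -0.20 (adjusted p 0.654) and -0.13 (adjusted p 0.713), and at ZT4 and ZT10 alone they were -0.44 (adjusted p 0.0973) and -0.39 (adjusted p 0.113). None of these differences passed. The LM marker sum itself stood highest in RevScapTKO, so the covariate fit cannot tell genotype and cell mixture apart. Summed stellate and endothelial markers also stood highest in RevScapTKO, and neither fit included them. The part of the cell mixture in the Hlf difference was not tested, and in bulk samples fewer cells of a type and less RNA per cell cannot be told apart.

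Bhlhe40 (NM_011498, chromosome 6, 108610623 to 108616919, plus strand), the E-box repressor DEC1, was lower in RevScapTKO. In Control it measured 341, 302 and 410 RPKTM at ZT4, 551, 875 and 788 at ZT10, 598, 444 and 430 at ZT16, and 393, 316 and 350 at ZT22. In RevDKO it measured 227, 210 and 313 at ZT4, 253, 392 and 435 at ZT10, 661, 369 and 524 at ZT16, and 520, 549 and 310 at ZT22. In RevScapTKO it measured 179, 89.8 and 184 at ZT4, 206, 220 and 279 at ZT10, 251, 274 and 137 at ZT16, and 160, 110 and 164 at ZT22. Every RevScapTKO library lay below every Control library (0.765% of all genes). RevScapTKO also lay below RevDKO over ZT16 and ZT22 (6 libraries against 6, 2.33% of all genes) and at ZT4 (12.2%), while the 2 genotypes overlapped at ZT10.

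The mean of Bhlhe40 over the day was -1.06 log2 units in RevScapTKO against RevDKO (SE 0.14, limma adjusted p 2.23e-06) and -1.35 against Control (SE 0.14, adjusted p 1.41e-08). RevDKO differed from Control by -0.29 (95% CI -0.58 to 0.01, adjusted p 0.313). Against RevDKO, the difference was -0.78 at ZT4 (adjusted p 0.0817) and -0.59 at ZT10 (adjusted p 0.393), and it passed at ZT16, at -1.25 (adjusted p 0.0148, 1.14% of genes passed as lower), and at ZT22, at -1.64 (adjusted p 0.000629, 1.78%). The ZT16 difference was lost without RevScapTKO replicate 3 (-0.94, adjusted p 0.212), RevDKO replicate 1 (-1.05, adjusted p 0.161) or RevDKO replicate 3 (-1.22, adjusted p 0.0625). Against Control, Bhlhe40 passed at all 4 times, with differences from -1.20 to -1.63 and 9.61%, 2.33%, 2.27% and 2.49% of genes passing as lower at ZT4, ZT10, ZT16 and ZT22. That call was lost at ZT16 without Control replicate 1 (-1.05, adjusted p 0.0906) or RevScapTKO replicate 3 (-0.89, adjusted p 0.156), and at ZT22 without RevScapTKO replicate 2 (-1.112, adjusted p 0.0723). Averaged over ZT4 and ZT10 alone, where LM markers were not raised to the same extent, the difference of Bhlhe40 from RevDKO was -0.68 (limma adjusted p 0.0361). With the LM marker sum as a covariate it was -0.97 (limma adjusted p 0.00400). Summed stellate markers, which neither fit included, were at least 1426 RPKTM in every RevScapTKO hepatocyte library, against a median of 1087 in RevDKO. The part of the cell mixture in the Bhlhe40 difference was not tested.

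The daily timing of Bhlhe40 was not shown to differ between the genotypes. Its fitted wave peaked at ZT11.6 in Control, with fitted values of ZT17.2 in RevDKO and ZT12.5 in RevScapTKO. The wave did not pass the F test within RevDKO or RevScapTKO, so these last values are not read as peak times. The 3 ZT10 libraries of RevDKO lay below the 3 of Control (9.09% of all genes), a difference of -1.04 (limma adjusted p 0.0761). The difference in wave between RevDKO and Control had an unadjusted p of 0.00385 and an adjusted p of 0.424. Bhlhe40 overlaps the opposite-strand transcript 0610040F04Rik by 306 bases. That transcript stood at 19.7 ± 9.63 RPKTM in Control, at 17.5 ± 8.34 in RevDKO, and at 5.22 ± 2.93 in RevScapTKO (mean ± SD over 12 libraries), and its 12 group means followed those of Bhlhe40 (Pearson r 0.99). Without strand in the counting, reads of the 2 transcripts in the shared bases could not be told apart.

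Bhlhe41 (NM_024469, chromosome 6, 145806763 to 145813940, minus strand), the DEC2 gene and the member with the lowest level, was higher over the day in both deletion genotypes. In Control it measured 3.73, 16.1 and 38.6 RPKTM at ZT4, 12.4, 16.8 and 10.2 at ZT10, 9.93, 3.54 and 3.78 at ZT16, and 1.27, 2.20 and 1.61 at ZT22. In RevDKO it measured 29.97, 11.5 and 11.8 at ZT4, 18.1, 26.4 and 19.9 at ZT10, 22.2, 10.8 and 13.9 at ZT16, and 3.75, 6.35 and 6.80 at ZT22. In RevScapTKO it ranged from 5.55 to 35.2, with 5.55, 7.70 and 7.21 at ZT22. The groups overlapped at ZT4, and RevDKO lay above Control at ZT10 (7.97% of all genes), ZT16 (6.88%) and ZT22 (8.08%). The mean over the day exceeded that of Control by 0.88 log2 units in RevDKO (SE 0.26, adjusted p 0.0442 by limma) and by 0.88 in RevScapTKO (SE 0.26, adjusted p 0.00909). The RevDKO value stands near the threshold. It was 0.40 with a pseudocount of 10 (adjusted p 0.159), and leaving out any of 16 of the 24 libraries took it past 0.05, to adjusted p between 0.0524 and 0.0942. The RevScapTKO difference was 0.37 over ZT4 and ZT10 alone (adjusted p 0.553), 1.08 with the LM marker sum as a covariate (adjusted p 0.0873) and 0.39 with a pseudocount of 10 (adjusted p 0.0506).

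Ciart (NM_001033302, chromosome 3, 95682428 to 95686151, minus strand), the gene of a BMAL1 repressor, showed no difference past the threshold in level or timing. In Control it measured 8.81, 10.9 and 12.2 RPKTM at ZT4, 42.8, 62.5 and 55.2 at ZT10, 22.3, 33.7 and 10.8 at ZT16, and 1.64, 6.82 and 8.55 at ZT22. In RevDKO it measured 15.0, 16.7 and 10.5 at ZT4, 34.1, 59.4 and 47.9 at ZT10, 22.9, 30.5 and 13.3 at ZT16, and 4.14, 3.73 and 5.73 at ZT22. The groups overlapped at every time point. The mean differed by 0.03 log2 units between RevDKO and Control (95% CI -0.53 to 0.59) and by -0.21 between RevScapTKO and Control (95% CI -0.77 to 0.35), intervals that leave room for changes in either direction. Ciart was also the only member whose 24 h wave passed in all 3 genotypes of this table, with adjusted p 0.000820 in Control, 0.00435 in RevDKO and 0.0374 in RevScapTKO and peak-to-trough differences of 3.33, 3.16 and 2.64. The RevScapTKO wave lost its call when any of 8 of the 12 libraries was left out (adjusted p from 0.0512 to 0.0909). In RevScapTKO the 3 libraries at ZT10, at 29.8, 33.4 and 24.1, lay below the 3 of Control (14.1% of all genes), and ZT4 replicate 2 stood at 36.2 beside 3.44 and 3.73. Ciart lies wholly within C920021L13Rik on the opposite strand, which was low in hepatocytes (2.53 ± 1.66 RPKTM in Control, SD, n = 12).

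**Figure D3:**
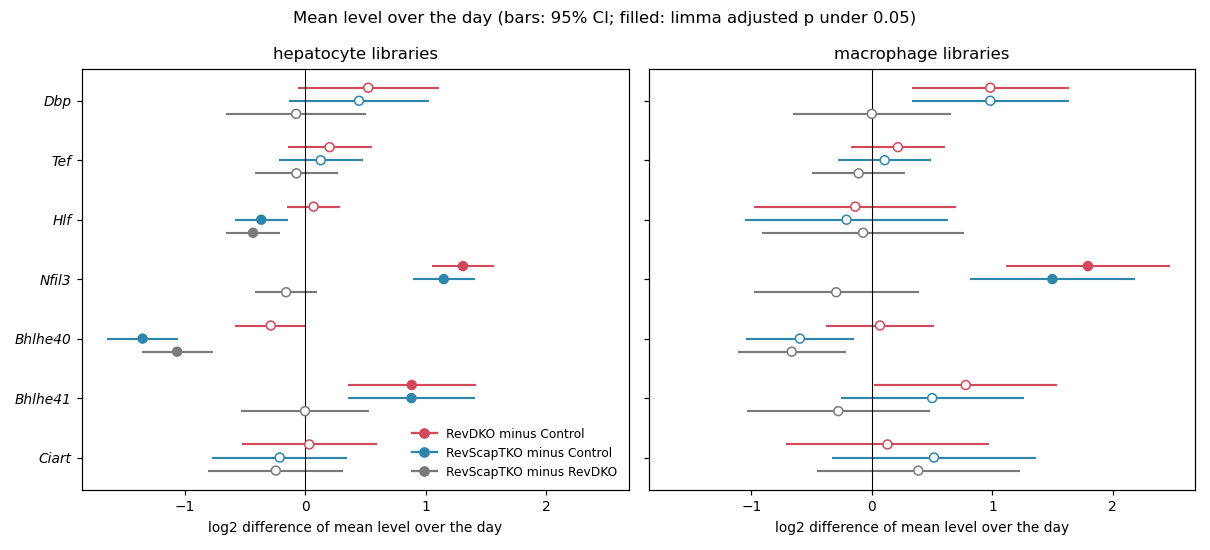
Differences in the mean level over the day on the log2 scale for each gene, in hepatocyte libraries at left and macrophage libraries at right. Bars are 95% confidence intervals and filled points passed the limma test at an adjusted p under 0.05. In hepatocytes Nfil3 and Bhlhe41 stand above 0 in both deletion genotypes, Bhlhe40 and Hlf stand below 0 in RevScapTKO, and in macrophages the filled points are those of Nfil3.

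Counted over the 7 genes in hepatocytes, the mean level passed for 2 higher (Nfil3, Bhlhe41) and 0 lower in RevDKO against Control, where 4.43% of all genes passed and 2% passed as higher. It passed for 0 higher and 2 lower (Bhlhe40, Hlf) in RevScapTKO against RevDKO, where 26.2% of all genes passed and 12.7% as lower. For RevScapTKO against Control it passed for 2 higher (Nfil3, Bhlhe41) and 2 lower (Bhlhe40, Hlf), where 35.9% did, 17.3% as higher and 18.7% as lower. In the last 2 comparisons the background is high, and the members' counts stand near it. The median difference over the members was 0.20 log2 units in RevDKO against Control, beside -0.01 over all genes. At single time points, Nfil3 was the one member that passed in RevDKO against Control, at ZT4 and ZT10. RevScapTKO and RevDKO were both compared with the same Control libraries, so these comparisons are not independent.

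JTK_CYCLE, which ranks libraries against cosine-like daily patterns, was also run under the rule of the study, which enters the 12 libraries 2 times in a row. Its p-values were adjusted over the patterns tried and not over transcripts. In Control hepatocytes 6 of 7 members were rhythmic (28.1% of all transcripts), in RevDKO 6 of 7 (28.5%), and in RevScapTKO 5 of 7 (19.9%). Hlf missed in Control and RevDKO, where the ratio of its highest to its lowest time point mean was 1.475 and 1.469, just under the minimum of 1.5. Nfil3, with a ratio of 1.16, and Tef, with 1.405, were not rhythmic in RevScapTKO. Entering the libraries a second time adds no data and lowers the p-values. For Ciart in Control, JTK_CYCLE gave a p of 5.60e-09 with the series entered 2 times and 0.000758 with it entered once. With the series entered once, 5, 3 and 0 members passed the rule (9.87%, 8.01% and 2.53% of transcripts). Bhlhe41 then missed it in Control and RevDKO at a p equal to the threshold of 0.05. With adjustment over all transcripts as well, this rule called 0 transcripts of any gene in every genotype and cell type. The number of rhythmic members in RevScapTKO thus depends on how often the series is entered. With 1 library left out, the main rule lost Hlf in 4 and Ciart in 3 of 12 cases in RevScapTKO, and Nfil3 in 2 of 12 in RevDKO.

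**Figure D4:**
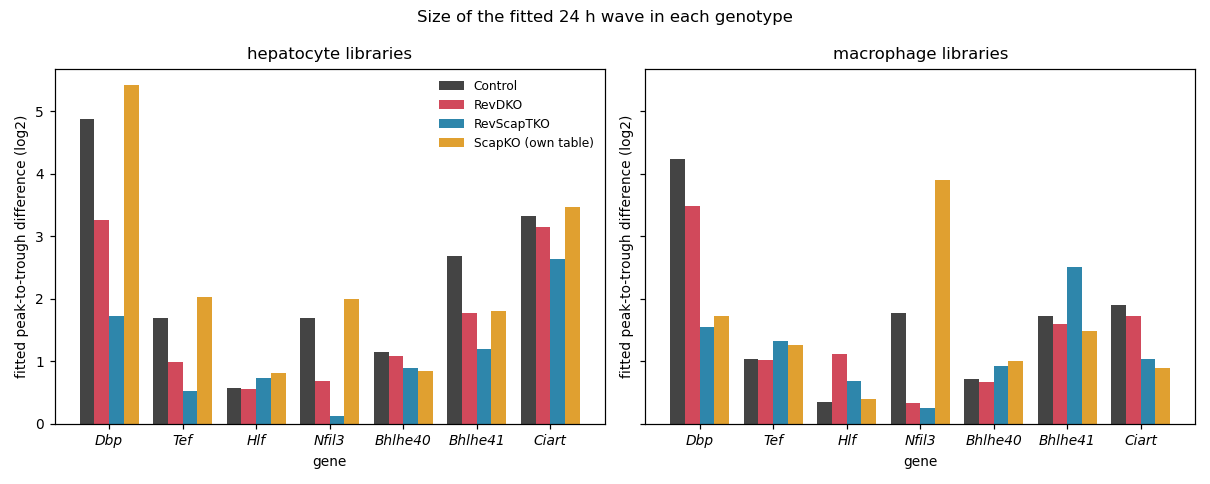
Fitted peak-to-trough difference of the 24 h wave, in log2 units, for each gene and genotype, in hepatocyte libraries at left and macrophage libraries at right. ScapKO values come from tables normalized apart. For Dbp the bars stand at 4.88, 3.26 and 1.73 in Control, RevDKO and RevScapTKO hepatocytes, and for Nfil3 at 1.70, 0.69 and 0.12.

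The peak-to-trough difference fell from Control to RevDKO to RevScapTKO for 6 of 7 members in hepatocytes, Hlf being the exception, and the same order held for 19.5% of all genes. In LMs it held for 3 of 7 (Dbp, Nfil3 and Ciart; 18.5% of all genes). This order is a description of fitted values, and only the Nfil3 differences from Control in hepatocytes passed a test. The core clock list of 13 genes, of which 12 were tested, gives the setting. In RevDKO against Control 5 of its genes were higher and 1 lower in mean level (4.43% of all genes passed). Among those higher were Nr1d1, with the value given above, Arntl, which encodes BMAL1, at 1.83 log2 units (adjusted p 1.60e-11), Npas2, a partner of BMAL1, at 4.12 (adjusted p 1.65e-11), and the repressor gene Cry1 at 1.17 (adjusted p 1.20e-06). Between RevScapTKO and RevDKO 0 of the 12 passed (limma), where 26.2% of all genes did. The wave test within a genotype called 9 of the 12 in Control, 3 in RevDKO and 0 in RevScapTKO, beside 8.29%, 4.08% and 0.683% of all genes.

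A further list held 22 genes linked to PAR bZIP proteins or NFIL3 in liver, mostly enzymes of detoxification and fat metabolism. In RevDKO against Control 1 was higher and 7 lower in hepatocytes, with a median of -0.26 log2 units beside -0.01 over all genes, of which 4.43% passed. The acyl-CoA thioesterase genes Acot3 (-3.56, adjusted p 4.44e-08), Acot1 (-2.62, adjusted p 2.20e-07) and Acot4 (-1.41, adjusted p 3.47e-05) were lower, and the cytochrome P450 gene Cyp2a5 was higher (2.02, adjusted p 9.43e-07). In RevScapTKO against RevDKO 6 were higher and 7 lower, where 26.2% of all genes passed, among them the glutathione transferase genes Gsta3 (-1.30, adjusted p 9.63e-07) and Gstt1 (-1.14, adjusted p 2.06e-05), the epoxide hydrolase gene Ephx1 (0.88, adjusted p 7.17e-06) and Cyp2a4 (4.60, adjusted p 6.28e-05). Against Control, 6 were higher and 13 lower in RevScapTKO, where 35.9% of all genes passed. The summed LM, stellate and endothelial markers also stood highest in RevScapTKO, as given above, and their part in these counts was not tested. The list thus did not move one way, and its link to the level of any member was not tested.

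**Figure D5:**
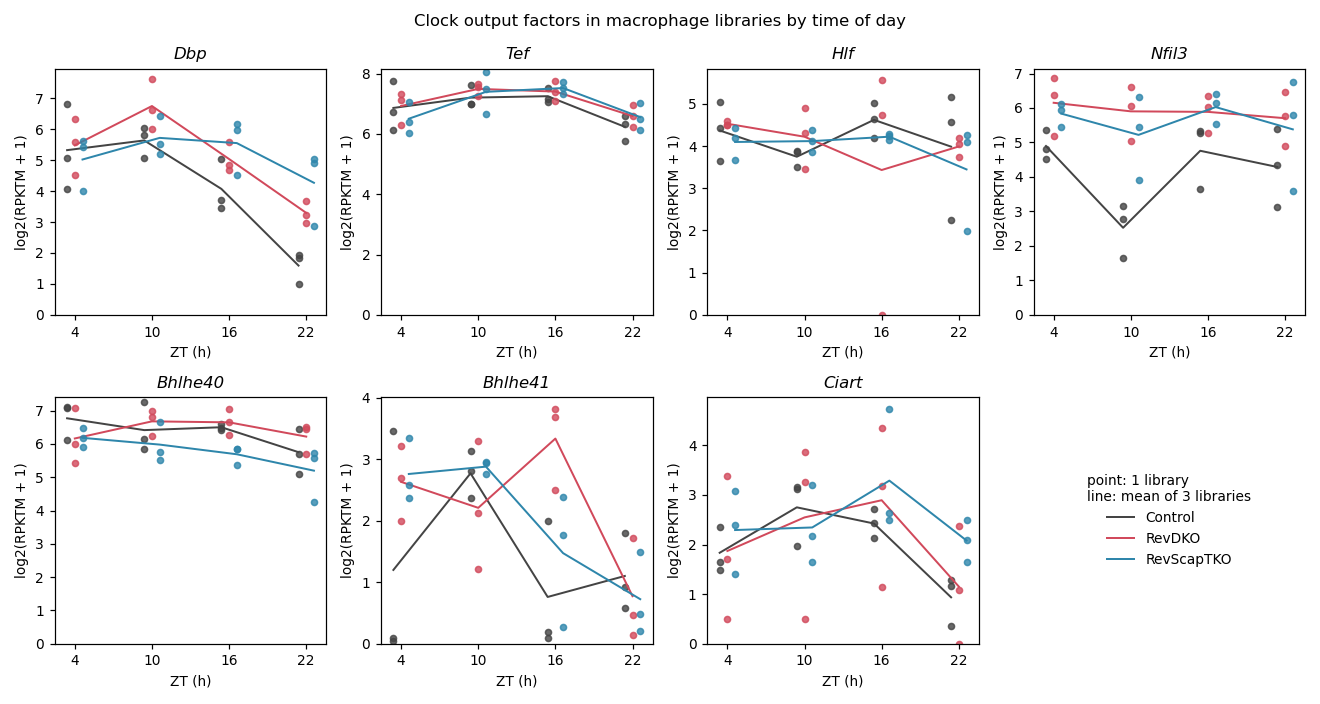
Level of each of the 7 genes in liver macrophage libraries, as log2(RPKTM + 1), against zeitgeber time in hours. Points are single libraries and lines join the means of 3 libraries. At ZT10 the 3 Nfil3 points of RevDKO, from 32.1 to 96.7 RPKTM, lie above the 3 of Control, from 2.14 to 7.90.

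In LMs the order of the Control means was Tef (127 RPKTM), Bhlhe40 (88.1), Dbp (31.1), Nfil3 (21.8), Hlf (19.6), Ciart (3.58) and Bhlhe41 (2.93). Dbp and Nfil3 were not apart, with Dbp higher in 5 of 12 libraries, nor were Nfil3 and Hlf, with Nfil3 higher in 6 of 12. Bhlhe41 and Ciart were near the filter, with 12 of 36 libraries above 5 RPKTM for each. For Nfil3 the SE of the mean difference was 0.34 log2 units in LMs, against 0.13 in hepatocytes.

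Nfil3 was again the member that changed. In Control LMs it measured 27.0, 40.2 and 21.9 RPKTM at ZT4, 7.90, 5.83 and 2.14 at ZT10, 11.6, 39.5 and 38.1 at ZT16, and 7.77, 19.4 and 40.7 at ZT22. In RevDKO it measured 35.5, 82.3 and 117 at ZT4, 96.7, 32.1 and 65.2 at ZT10, 38.0, 64.8 and 79.9 at ZT16, and 28.5, 87.3 and 53.3 at ZT22. In RevScapTKO it measured 60.9, 42.7 and 67.8 at ZT4, 14.1, 42.4 and 78.2 at ZT10, 45.0, 69.9 and 84.0 at ZT16, and 54.1, 11.1 and 107 at ZT22. RevDKO lay above Control at ZT10 (9.41% of all genes), where Control was lowest, and overlapped it at the other times. RevScapTKO lay above Control at ZT4 (6.13%), ZT10 (6.49%) and ZT16 (9.8%). Over the day Nfil3 exceeded Control by 1.79 log2 units in RevDKO LMs (SE 0.34, adjusted p 0.00415 by limma) and by 1.498 in RevScapTKO LMs (SE 0.34, adjusted p 0.00650). RevScapTKO differed from RevDKO by -0.30 (95% CI -0.98 to 0.39). At ZT10 the RevDKO difference was 3.38 (adjusted p 0.0401), where 0.0574% of genes passed as higher, and this was lost with a pseudocount of 10 (2.21, adjusted p 0.0969) and when 1 library of either group at ZT10 was left out in 5 of 6 cases (2.94 to 3.80, adjusted p from 0.0823 to 0.196).

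Because Nfil3 was also higher in hepatocytes of these genotypes, and hepatocyte RNA was plentiful in the LM libraries, the hepatocyte markers are given beside it. All 10 were measured, and their sum had a median of 97701 RPKTM in Control LMs, 85540 in RevDKO and 99163 in RevScapTKO. With the hepatocyte marker sum as a covariate the Nfil3 differences in LMs were 1.75 (adjusted p 0.0119) and 1.46 (adjusted p 0.0119). Without the 6 libraries named above for their markers they were 1.488 (adjusted p 0.0155) and 1.17 (adjusted p 0.0353). Neither fit can settle the question, since equal amounts of hepatocyte RNA would still carry the hepatocyte difference in Nfil3 into the LM libraries. How much of the Nfil3 signal in LM libraries came from hepatocyte RNA was not tested. The same holds for the other members in LMs.

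Of the 7 genes, 1 passed for the mean level in LMs in RevDKO against Control (0.574% of all genes, 0.402% as higher), 1 in RevScapTKO against Control (3.76%, 2.38% as higher), and 0 in RevScapTKO against RevDKO (3% of all genes; limma, 1 at an unadjusted p under 0.05). That 1 was Bhlhe40, at -0.66 log2 units (SE 0.22, adjusted p 0.0986), the gene that was lower in the hepatocyte comparison as well. Dbp was 0.98 log2 units from Control in each deletion genotype (SE 0.32, adjusted p 0.174 in RevDKO and 0.0827 in RevScapTKO). The second passed when Control ZT4 replicate 3, RevScapTKO ZT4 replicate 1 or RevScapTKO ZT22 replicate 1 was left out, with adjusted p of 0.0260, 0.0493 and 0.0327. At ZT22 Dbp measured 2.82, 2.58 and 1.005 RPKTM in Control LMs, 6.84, 11.8 and 8.45 in RevDKO, and 6.34, 28.9 and 31.5 in RevScapTKO, each deletion genotype lying above Control (3.75% and 3.25% of all genes). No difference in the 24 h wave passed for a member in LMs, nor for any of the 13947 genes (0% in each comparison, limma F test, 1 member, Dbp in RevScapTKO against Control, at an unadjusted p under 0.05). Within a genotype, the wave of Dbp passed in Control LMs (adjusted p 0.00670, 0.0502% of all genes) and RevDKO LMs (adjusted p 0.0114, 2.53% of all genes), with peak-to-trough differences of 4.23 and 3.48, while no member passed in RevScapTKO LMs (0.0789% of all genes, 2 members at an unadjusted p under 0.05), and the Dbp peaks at ZT8.9 and ZT9.5 lay near those of hepatocytes at ZT8.1 and ZT8.2. JTK_CYCLE called 3 members in Control LMs (Dbp, Tef, Ciart; 19% of transcripts), 2 in RevDKO (Dbp, Tef; 28.2%) and 3 in RevScapTKO (Tef, Bhlhe40, Bhlhe41; 14.8%). With 1 library left out, the call of Tef in Control was lost in 9 of 12 cases (p up to 0.118) and that of Bhlhe40 in RevScapTKO in 8 of 12 (p up to 0.118).

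Tef, Hlf, Bhlhe41 and Ciart gave no limma call in LMs. Tef was read here from NM_017376, a transcript with another start than the one used in hepatocytes. It ranged from 53.1 to 215 RPKTM in Control, from 73.9 to 214 in RevDKO and from 64.6 to 265 in RevScapTKO. Its mean differed from Control by 0.22 log2 units in RevDKO (95% CI -0.17 to 0.60) and by 0.107 in RevScapTKO (95% CI -0.28 to 0.50). The median of Hlf was 18.9 RPKTM in Control, with 20.1 in RevDKO and 17.0 in RevScapTKO LMs, and 1 library (RevDKO ZT16 replicate 1) lists it at 0. Bhlhe41 differed from Control by 0.78 in RevDKO (95% CI 0.02 to 1.54, limma adjusted p 0.349), its largest single difference being 2.58 at ZT16 (adjusted p 0.183). Ciart, which lies within a transcript of the opposite strand that was higher than Ciart itself in Control LMs (C920021L13Rik, 8.43 ± 4.72 RPKTM), differed from Control by 0.13 in RevDKO (95% CI -0.71 to 0.97) and by 0.52 in RevScapTKO (95% CI -0.33 to 1.36).

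In the LM table the core clock list had 2 genes higher and 0 lower in RevDKO against Control (0.574% of all genes passed), Npas2 at 3.39 log2 units (adjusted p 1.10e-05) and Cry1 at 1.35 (adjusted p 0.0132). Of the 22 genes linked to PAR bZIP proteins, 1 was higher and 2 lower, led by Acot3 (-1.68, adjusted p 0.000532) and Cyp2a5 (1.997, adjusted p 0.000532). Hepatocyte RNA was plentiful in these libraries, and its part in the differences of both lists was not tested.

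Libraries labelled ScapKO hepatocytes, with Scap as the only floxed gene, showed daily waves in most members. Their table holds no Control, so no difference from Control was tested. Dbp measured 75.7, 380 and 181 RPKTM at ZT4, 437, 334 and 396 at ZT10, 22.02, 43.5 and 63.5 at ZT16, and 9.87, 7.67 and 18.4 at ZT22. Nfil3 measured 185, 184 and 115 at ZT4, 98.4, 124 and 124 at ZT10, 270, 285 and 247 at ZT16, and 244, 672 and 444 at ZT22. Dbp was thus high in the light phase and Nfil3 in the dark phase, with fitted peaks at ZT8.5 and ZT20.5. The limma F test called 4 of 7 members (Dbp, Tef, Nfil3 and Ciart), where 1.85% of all genes passed, with adjusted p from 0.000554 for Dbp to 0.0364 for Ciart, which lost its call when any of 8 libraries was left out (adjusted p from 0.0603 to 0.124). Peak-to-trough differences were 5.42 for Dbp, 2.02 for Tef, 2.003 for Nfil3 and 3.47 for Ciart. JTK_CYCLE called 7 of 7 (18.5% of transcripts), and 5 with the series entered once (4.86%). The call of Bhlhe40 was lost in 9 of 12 cases when 1 library was left out (p up to 0.321). Bhlhe40 measured from 400 to 1213 RPKTM with a fitted peak-to-trough difference of 0.84, which did not pass the F test (adjusted p 0.380). At ZT22 library 1 had low hepatocyte markers (sum 405632 RPKTM beside a median of 1267000) and library 2 had high LM markers.

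In ScapKO LMs no member passed the F test, nor did any gene of that table (0%, limma, 3 members at an unadjusted p under 0.05), and JTK_CYCLE called Dbp, Tef and Nfil3 (20.7% of transcripts), the last being lost in 4 of 12 cases when 1 library was left out. Nfil3 stood at 988 RPKTM and Bhlhe40 at 1295 in ZT22 replicate 2, beside 27.6 and 155 for Nfil3 and 95.6 and 350 for Bhlhe40 in the other libraries of that time. LM markers in that library summed to 21205 RPKTM, against a median of 114478 over the 12, and hepatocyte markers to 143361, against 51638.

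The genes most like the members were sought over the 12 group means of the hepatocyte table, among genes whose means spanned more than 1 log2 unit. These correlations describe points that share a table and its normalization. Tef was most like the clock gene Per3 (r 0.83) and then Ciart (0.83), Bhlhe41 most like Nr1d2 (0.94), and Nfil3 most like the lipoprotein lipase gene Lpl (0.95), followed by Chka (0.94) and Clock (0.94). Hlf was most like Lypla1 (0.95), Ciart most like Maoa (0.90), and after its overlapping transcript Bhlhe40 was most like Ildr2 (0.95) and Aacs (0.95). In LMs the gene most like Tef was again Per3 (r 0.86), and that most like Nfil3 was Asap2 (0.97).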

How the data were processed

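The 4 deposited tables hold quantile normalized RPKTM, a form of RPKM scaled to 10000000 reads, which the authors made from rRNA-depleted stranded libraries with STAR and HOMER on the mouse build mm9. Every library of a table has the same set of values, so read depth is unknown and no counting error can be given. Groups were taken from the sample labels, 3 libraries in each of 32 groups. The study calls these libraries biological replicates, and p-values measure the spread between them.

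One transcript stood for each gene, that with the highest mean in a table. For Tef it was NM_153484 in the hepatocyte table of 3 genotypes and NM_017376 in the other tables. For Bhlhe41 it was NM_024469 in the tables of 3 genotypes and NM_001271768 in the ScapKO tables. Genes with at least 3 libraries above 5 RPKTM were kept (13326 in the hepatocyte and 13947 in the LM table of 3 genotypes, 12724 and 13930 in the ScapKO tables). limma 3.58.1 (R 4.3.3, trend) was fitted on log2(RPKTM + 1) for each table, with 1 term for each genotype and time and adjustment over all genes kept (Benjamini-Hochberg). Contrasts compared genotypes over the day, at each time, and in the cosine and sine of a 24 h wave, and F tests asked for a wave within a genotype. JTK_CYCLE was rewritten in Python 3.11.15 (periods of 18 and 24 h tried) and called a transcript rhythmic where it exceeded 5 RPKTM in at least 2 of a genotype's libraries, with a best period of 24 h, a p under 0.05 adjusted over the patterns tried (not over transcripts) and a ratio of highest to lowest time point mean over 1.5, with the series entered 2 times as in the study. The marker covariate was the log2 sum of the 10 markers of the other cell type. The scripts were tested on simulated data.

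Alternatives were a pseudocount of 0.1 or 10, no filter, all transcripts, only the 2 genotypes compared, a replicate block, the marker covariate, leaving out libraries with aberrant markers, ZT4 and ZT10 only, any difference among the 4 time points, other JTK_CYCLE rules and leaving out each library. The libraries left out for their markers and the restriction to ZT4 and ZT10 were chosen after seeing the data. The members and gene lists were chosen with earlier results of these data known. For each list and comparison at most 4 genes past the threshold were named, by smallest adjusted p. A few values of genes outside the 7, in the core clock list and among the genes most like a member, are not reported here.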

Additional observations from a re-analysis of the deposited data

Results flagged for a closer look

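The rise of Nfil3 in hepatocytes depended on the time of day in both deletion genotypes, which is why it is listed here. For RevDKO against Control the limma F test of the difference in wave gave an adjusted p of 0.00325, and for RevScapTKO against Control an adjusted p of 0.0410, the latter with the exceptions already given. Both comparisons share the same 12 Control libraries.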

How the results depend on the processing

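In hepatocytes, the higher Nfil3 and the lower Bhlhe40 of RevScapTKO against Control, the higher Nfil3 of RevDKO against Control and the lower Bhlhe40 of RevScapTKO against RevDKO, all as means over the day, kept their calls under every alternative run. Among the counts of called members, 173 values under planned and added alternatives stayed within 1.5 times the main count and 37 did not, and with 1 library left out 565 did and 59 did not. The cause of a change was not tested beyond what an alternative itself removes. In hepatocytes the mean called 1 member in place of 2 for RevDKO against Control with a pseudocount of 10 or no filter, and for RevScapTKO against RevDKO with the marker covariate or at ZT4 and ZT10 only. For RevScapTKO against Control these last alternatives called 2 in place of 4. Single time points of RevScapTKO against RevDKO gave 1 call in place of 2 with the marker covariate or only the 2 genotypes. The changed wave of RevScapTKO against Control had 0 members with a pseudocount of 10, no filter or only the 2 genotypes, and the wave within RevScapTKO had 0 with no filter or when any difference among the 4 time points was tested. In LMs, single time points of RevDKO against Control gave 0 calls with a pseudocount of 10, no filter, all transcripts or only the 2 genotypes, and 2 without libraries with aberrant markers, where RevScapTKO against Control had 1 in place of 0. JTK_CYCLE with the series entered once and adjustment over transcripts called 0 members in every genotype and cell type. Entered once, it called 3 in RevDKO hepatocytes, 0 in RevScapTKO hepatocytes and ScapKO LMs and 1 each in RevDKO and RevScapTKO LMs, and with a ratio over 2 it called 3 in RevScapTKO hepatocytes and 1 each in RevDKO and RevScapTKO LMs. Counts with 1 library left out are given as lowest and highest, beside the main count. In hepatocytes they were 1 and 2 for the mean of RevDKO against Control (main 2). They were 1 and 3 for single time points of RevScapTKO against RevDKO (main 2). The changed wave of RevScapTKO against Control gave 0 and 2 (main 1), and the wave within RevScapTKO 0 and 2 (main 1). In LMs, single time points of RevDKO against Control gave 0 and 2 (main 1). For RevScapTKO against Control the mean gave 1 and 2 (main 1) and single time points 0 and 1 (main 0). JTK_CYCLE gave 3 and 6 in RevScapTKO hepatocytes (main 5) and 2 and 4 in RevDKO LMs (main 2). Differences near 0 that were no call changed sign. In hepatocytes the mean of Ciart in RevDKO against Control was -0.00145 with a pseudocount of 10, and in RevScapTKO against RevDKO Nfil3 was 0.00694, Bhlhe41 0.20 and Ciart 0.0881 with the marker covariate, and Bhlhe41 0.00295 with a pseudocount of 0.1. In RevScapTKO against Control Ciart was 0.13 with the marker covariate, and Dbp -0.76 and Tef -0.28 at ZT4 and ZT10 only. In LMs Bhlhe40 in RevDKO against Control was -0.00221 and Tef in RevScapTKO against Control -0.0104 without libraries with aberrant markers, and Ciart in RevDKO against Control -0.13 with a pseudocount of 0.1. In RevScapTKO against RevDKO LMs Dbp was -0.0481 with a pseudocount of 10, -0.0145 with the marker covariate and -0.0917 without libraries with aberrant markers, and Hlf 0.17 with a pseudocount of 0.1. With 1 library left out, in hepatocytes Ciart in RevDKO against Control ranged from -0.11 to 0.12, Dbp in RevScapTKO against RevDKO from -0.22 to 0.12, Tef from -0.21 to 0.0472 and Bhlhe41 from -0.10 to 0.105 in the same comparison, and Tef in RevScapTKO against Control from -0.00871 to 0.25. In LMs Hlf in RevDKO against Control ranged from -0.40 to 0.29, Bhlhe40 from -0.0448 to 0.17 and Ciart from -0.0601 to 0.38, and in RevScapTKO against RevDKO Dbp ranged from -0.12 to 0.17 and Hlf from -0.50 to 0.19.

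No label ties the replicate numbers to a shared animal, batch or day, and 13 of 36 same-number pairs in hepatocytes and 15 of 36 in LMs correlated above 0.1, so the libraries were not treated as paired. In 22 of 36 and 20 of 36 comparisons a library correlated best with its own number, a hint of pairing from the data and not from the design. With the replicate block the mean of RevScapTKO against Control in LMs called 2 members in place of 1, adding Dbp (0.98, limma adjusted p 0.0331), and single time points called 1 in place of 0. The block changed no other count of called members by over 1.5 times.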
